A study of Mus musculus with 6 samples.

Results

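Leukocytes reach the cerebrospinal fluid partly through the choroid plexus, the secretory tissue of the brain ventricles, and the signals for that route are chemokines, cytokines and the adhesion molecules that leukocytes bind. A list of 36 such genes was read on arrays of choroid plexus epithelium from RAG-/- mice and from wild type (WT) mice, both of the B10.PL strain. Without RAG, antigen receptor genes are not rearranged and no mature lymphocytes of the T or B lineage form. Which of the RAG genes was disrupted is not in the labels. A member was any probe set whose single gene symbol in the platform annotation was on the list, which gave 53 probe sets for 35 of the 36 genes, out of 18193 genes measured in this way. The remaining gene, Ccl19, is named only by a probe set that lists several genes and has no value here. The rule goes by gene names and uses no measured value.

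There were 3 RAG-/- and 3 WT arrays by the sample descriptions, each of total RNA from whole-brain choroid plexus epithelium, and a code shared by the titles put them into 3 pairs of 1 RAG-/- and 1 WT array. The labels give neither the age nor the sex of the mice, nor whether animals were pooled, so p-values measure only the spread between these preparations, which may be technical. For pair 1 the descriptions say that the samples had been reversed and contradict the titles. By title RAG-/- replicate 1 would be WT and WT replicate 1 would be RAG-/-. The genotype below is that of the description unless the title is named, and each array keeps its description name.

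Values are log2(intensity + 16) after quantile normalization, a scale that makes differences between dim signals look smaller. The table has no detection calls, so each array was given a background level, the 95th percentile of 81 probe sets for olfactory, vomeronasal and bitter taste receptors. It lay between 6.36 and 6.68 in RAG-/- arrays and between 6.21 and 6.59 in WT arrays, and was lowest in WT replicate 1. Probe sets differ in how strongly they bind, so this level is a rule rather than a test of detection, and levels of different genes are not compared. Choroid plexus epithelium markers were above it in every array, 8 of 8 genes, with list means of 13.05 to 13.99 in RAG-/- arrays and 13.71 to 13.89 in WT arrays, the lowest being RAG-/- replicate 2. That array also had the highest neuron marker mean, 13.48 in it against 10.20 to 12.31 in the others. Of the T cell markers measured, Cd3d, Cd3e, Cd3g and Cd4 were above background in no array of either genotype and Cd8a was above it in every array. Rag1 read 4.6, 6.92 and 6.31 in RAG-/- replicates 1, 2 and 3 and 6.54, 4.16 and 4.35 in WT replicates 1, 2 and 3, and the 2 arrays above background, RAG-/- replicate 2 and WT replicate 1, are both titled RAG. By title the groups did not overlap, with a mean of 6.59 ± 0.31 in the arrays titled RAG and 4.37 ± 0.22 in the others (SD, n = 3 each), and by description they overlapped. Of all genes 2.76% were likewise higher in all arrays titled RAG. Rag2 read 5.55, 4.87 and 5.99 in RAG-/- and 4.46, 4.67 and 7.14 in WT, with WT replicate 3 alone above background. B cell markers, of which 0 of 5 were above background in every array and 2 in none, had list means of 6.62, 5.75 and 5.58 in RAG-/- and 5.55, 5.92 and 6.39 in WT. By description 3 of the 5 were higher and 2 lower in RAG-/- (median 0.12). By title 0 were higher and 5 lower (median -0.76), and the 3 list means of the arrays titled RAG lay below the other 3. Of all genes 50.2% were lower by description and 52.7% by title. T cell markers had 4 higher and 1 lower by description (median 0.18), and 3 higher and 2 lower by title (median 0.05). Which labels of pair 1 are right was not tested.

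Chemokines are small secreted proteins that draw leukocytes along a gradient; a few are held on the cell surface and also serve as adhesion molecules. Rolling on selectins and firm binding to ICAM-1, VCAM-1 and MAdCAM-1 then let leukocytes stop and cross a vessel wall or an epithelium. Many of these genes are targets of the transcription factor NF-kB, which is held in the cytoplasm by the inhibitor that Nfkbia encodes. Choroid plexus epithelium is known to carry ICAM-1 and VCAM-1, and CXCL12 is known as a product of stroma and vessels that keeps CXCR4-bearing cells in place.

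The RefSeq promoter table (GRCm38.p6) held 27 of the 36 genes, and the 250 bases before the annotated start of 4 of them are shown because the values below turn on them: Nfkbia, Icam1 and Cxcl10 were lowest in both arrays of pair 2, and Cxcl12 differed most between the genotypes among members above background in every array. Capitals mark matches to the NF-kB consensus on either strand, which is a match of letters and not a measured site.
Nfkbia, chr12:55492648-55492897, minus strand: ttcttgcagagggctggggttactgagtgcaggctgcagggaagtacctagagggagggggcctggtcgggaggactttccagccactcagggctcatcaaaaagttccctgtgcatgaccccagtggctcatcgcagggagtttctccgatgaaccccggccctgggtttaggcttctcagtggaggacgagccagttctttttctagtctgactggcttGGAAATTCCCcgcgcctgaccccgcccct
Icam1, chr9:21015690-21015939, plus strand: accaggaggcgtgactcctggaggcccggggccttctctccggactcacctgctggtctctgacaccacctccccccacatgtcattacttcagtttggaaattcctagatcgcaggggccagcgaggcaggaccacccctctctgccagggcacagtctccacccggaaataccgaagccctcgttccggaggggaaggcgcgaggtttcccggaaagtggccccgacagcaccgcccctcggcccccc
Cxcl10, chr5:92348890-92349139, minus strand: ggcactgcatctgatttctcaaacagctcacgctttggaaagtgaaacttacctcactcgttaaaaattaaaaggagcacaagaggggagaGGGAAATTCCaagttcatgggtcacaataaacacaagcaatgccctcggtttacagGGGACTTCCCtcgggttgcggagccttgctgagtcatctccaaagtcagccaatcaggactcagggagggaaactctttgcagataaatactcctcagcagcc
Cxcl12, chr6:117168285-117168534, plus strand: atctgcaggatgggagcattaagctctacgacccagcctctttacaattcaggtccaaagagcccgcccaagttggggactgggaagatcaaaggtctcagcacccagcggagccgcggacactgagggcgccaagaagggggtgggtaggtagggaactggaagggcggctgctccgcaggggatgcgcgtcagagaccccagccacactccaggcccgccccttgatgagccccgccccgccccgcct
Matches stood 29 bases before the start in Nfkbia and 159 and 103 bases before it in Cxcl10. Of the 27 genes, 7 held a match (25.9%), namely Ccl20, Il6, Cxcl1, Cxcl2, Cxcl10, Madcam1 and Nfkbia, against 1204 of 27025 genes in the table (4.46%). The matches of Cxcl1 and of Cxcl2 each overlap as a pair.

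Icam1, Vcam1, 2 membrane-anchored chemokines and a few secreted signals were above the background level in every array, and most of the inducible cytokines were not. Of the 35 members, 11 were above background in every array (31.4%, against 60% of all 18193 genes), 13 in some arrays (37.1%, against 20.3%) and 11 in none (31.4%, against 19.7%). The members above background throughout were the adhesion molecules Icam1 and Vcam1, the NF-kB inhibitor Nfkbia, the membrane-anchored chemokines Cx3cl1 and Cxcl16, the chemokines Cxcl12, Ccl27a, Cxcl1 and Ccl4, and the cytokines Il18 and Il33. For 3 of them this depended on the rule. With the 99th percentile as the level, Icam1 and Cxcl16 were above it in 5 of 6 arrays. With the mean of a gene's probe sets, Cxcl16 and Cx3cl1 were above background in 5 of 6. The members above it in some arrays were the inflammatory chemokines Ccl2, Ccl3, Ccl5, Ccl7, Ccl8 and Ccl12, with Cxcl2, Cxcl10, Cxcl13, Il1b, Tnf, Madcam1 and Selp. The members above it in no array were Il1a, Il4, Il6, Il10, Il13, Ifng, Ccl11, Ccl20, Ccl24, Cxcl9 and Sele. A value under background does not show that a gene is silent, and a less bright probe set of Cxcl9 was above background in 1 array.

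**Figure D1:**
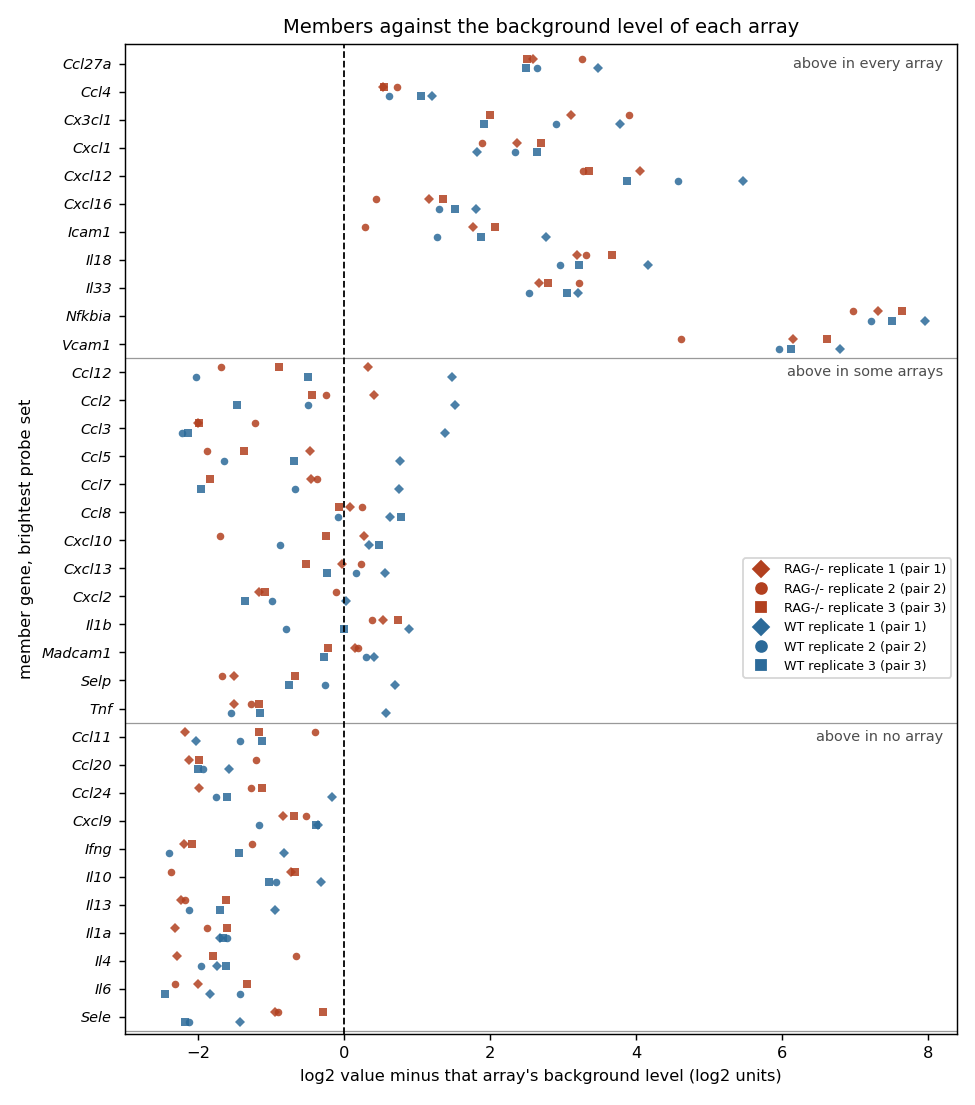
Log2 value of each member minus the background level of the same array, at the brightest probe set, for 35 members in 3 classes. Red symbols are the 3 RAG-/- arrays and blue symbols, just below, the 3 WT arrays by description; the symbol gives the pair, and the dashed line is the background level. The WT replicate 1 diamonds lie alone to the right of the line for Ccl3, Ccl5, Ccl7, Cxcl2, Tnf and Selp. For Cxcl2 RAG-/- replicate 2 read higher than WT replicate 1, at 6.36 against 6.23, but its background level was 6.46 against 6.21. With the 99th percentile as the level Cxcl2 and Tnf were above it in 0 of 6 arrays.

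No member separated RAG-/- from WT choroid plexus past the threshold. With limma and Benjamini-Hochberg adjustment, 17 of the 35 members passed the filter on dim probe sets (74.4% of all genes), and 0 of the 17 had an adjusted p under 0.05 by description, as did 0% of the 13537 genes that passed it, and 1 of 17 had an unadjusted p under 0.05 (0.672% of genes). By title the counts were 0 of 17 (0% of genes) and 0 of 17 (1.38% of genes), as adjusted and unadjusted p. With the pair as a block 0 of 17 passed by description (0% of genes) and 0 by title (0.00739% of genes), and 1 of 17 (2.45% of genes) and 0 of 17 (4.74% of genes) had an unadjusted p under 0.05. Over all 35 members the median difference, RAG-/- minus WT, was -0.20 by description, with 22 members lower and 13 higher, and 0.08 by title, with 15 lower and 20 higher. Over all genes the medians were 0.00 and -0.02. Without WT replicate 1, with its partner kept in, the median was -0.01 by description, with 18 lower and 17 higher. By title the median was -0.05 without that array, with 20 lower and 15 higher. Within pairs 1, 2 and 3 the median over members was -0.18, 0.24 and -0.18 by description. Over all genes it was 0.03, -0.02 and -0.02.

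Cxcl12, on chromosome 6 (GRCm38.p6, 117168535 to 117181368), was the member with the 1 unadjusted p under 0.05 by description. Its brightest probe set read 10.72, 9.74 and 9.72 in RAG-/- replicates 1, 2 and 3, and 11.67, 11.06 and 10.46 in WT replicates 1, 2 and 3. In the deposited intensities these were 1703, 880.0 and 782 in RAG-/- and 3222, 2106 and 1338 in WT. Each RAG-/- array lay below its own WT partner, although RAG-/- replicate 1 lay above WT replicate 3 and the groups overlapped.

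The Cxcl12 means were 10.06 ± 0.58 in RAG-/- and 11.06 ± 0.61 in WT (SD, n = 3), a difference of -1.0 with SE 0.41 and a 95% interval of -1.95 to -0.05, or 0.5 times the WT signal (limma, unadjusted p = 0.0411, adjusted p = 1). The differences within pairs 1, 2 and 3 were -0.94, -1.32 and -0.74, and with the pair as a block the unadjusted p was 0.00297 and the adjusted p 0.9996. It kept its sign under the 14 alternatives tried, between -1.33 and -0.65, although dropping the filter and adding the block cannot change a difference. By title, where pair 1 turns, it was -0.37 (95% interval -1.58 to 0.83), and 0.20 with array weights.

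The other Cxcl12 probe sets were also lower in RAG-/- on average by description, by unlike amounts. The second read 8.75, 8.55 and 8.48 in RAG-/- and 8.94, 9.0 and 8.25 in WT, a difference of -0.14, and WT replicate 3 was its lowest array. The third differed by -0.81, with WT replicate 1 its 1 array above background. Fibroblast markers moved with the brightest probe set: 7 of 7 were above background in every array, and their list means were 10.72, 9.48 and 10.43 in RAG-/- replicates 1, 2 and 3 and 11.78, 11.12 and 11.27 in WT replicates 1, 2 and 3. Endothelial markers, 5 of 8 above background in every array, had list means of 8.23, 6.92 and 7.41 in RAG-/- and 8.57, 7.86 and 7.65 in WT. Their part in the Cxcl12 difference was not tested, and in bulk tissue fewer cells of a type and less RNA per cell cannot be told apart.

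**Figure D2:**
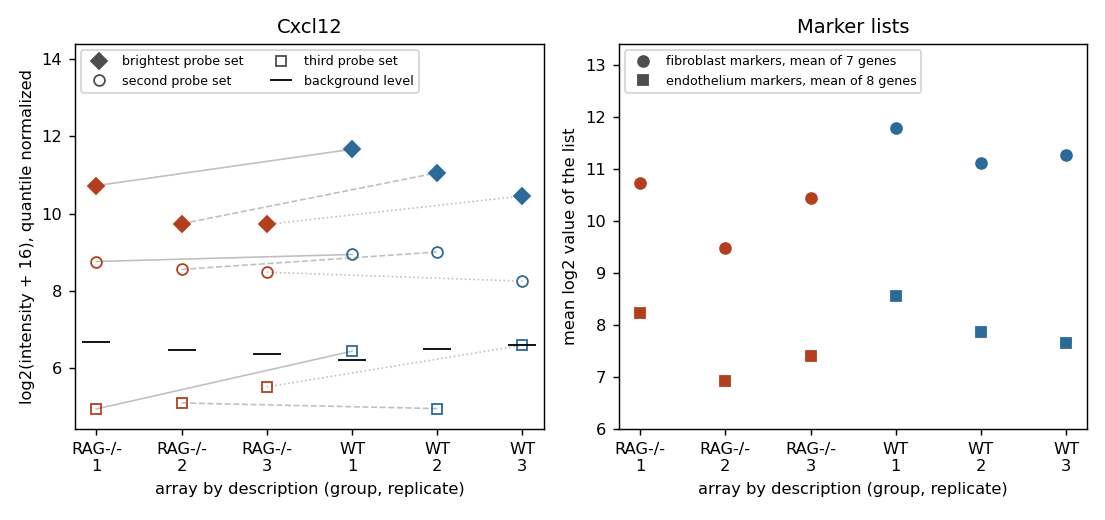
Left, log2 value of the 3 Cxcl12 probe sets in each array, with grey lines joining the arrays of a pair and black dashes for the background level of each array; right, mean log2 value of the fibroblast and endothelial marker lists. Red is RAG-/- and blue WT by description. At the brightest probe set each RAG-/- array lies below its WT partner, by 0.94, 1.32 and 0.74, and the 3 fibroblast means of RAG-/- lie below those of WT.

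At the brightest probe sets of Icam1, Vcam1 and Nfkbia the lowest values of both genotypes came from pair 2. Icam1 (chromosome 9, 21015940 to 21028814), the ligand of leukocyte integrin LFA-1, read 8.44, 6.75 and 8.43 in RAG-/- replicates 1, 2 and 3 and 8.97, 7.76 and 8.47 in WT replicates 1, 2 and 3. Vcam1 (chromosome 3, 116110020 to 116129688), which binds the integrin VLA-4, read 12.82, 11.07 and 12.97 in RAG-/- and 13.00, 12.44 and 12.71 in WT. Nfkbia (chromosome 12, 55489409 to 55492647) read 13.99, 13.44 and 14.00 in RAG-/- and 14.16, 13.71 and 14.09 in WT. In all 3 genes both arrays of pair 2 were lowest, RAG-/- replicate 2 below WT replicate 2, and the genotypes overlapped.

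By description the Icam1 difference was -0.53 (95% interval -1.75 to 0.69), the Vcam1 difference -0.43 (-1.52 to 0.66) and the Nfkbia difference -0.18 (-0.67 to 0.31), each with an adjusted p of 1 (limma). Without RAG-/- replicate 2 they were 0.03, 0.18 and 0.01, with its partner WT replicate 2, the lowest WT array, kept in. Within pairs 1, 2 and 3 the differences were -0.53, -1.01 and -0.04 for Icam1, and -0.17, -0.27 and -0.09 for Nfkbia. For Vcam1 they were -0.18, -1.37 and 0.26. By title the differences of Icam1, Vcam1 and Nfkbia were -0.17, -0.31 and -0.07, with intervals that included 0. Between pairs the adjusted p was 0.106 for Icam1, 0.158 for Vcam1 and 0.101 for Nfkbia (limma moderated F-test). The 4 further Nfkbia probe sets, all above background in every array, differed by -0.55, -0.51, -0.28 and 0.04 by description. The one at -0.28 was lowest in pair 3, at 9.80 in RAG-/- and 9.75 in WT. The other 2 Vcam1 probe sets were also lowest in RAG-/- replicate 2, at 8.23 and 7.20. That array was lowest in epithelial markers too and highest in neuronal ones, and the part of either in these values was not tested.

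Cxcl16 and Cx3cl1 are the chemokines that are made as membrane-anchored adhesion molecules and shed by proteases. Cxcl16 (chromosome 11, 70454389 to 70459984), which draws CXCR6-bearing T cells, read 7.84, 6.90 and 7.72 in RAG-/- replicates 1, 2 and 3 and 8.02, 7.79 and 8.10 in WT replicates 1, 2 and 3. Only RAG-/- replicate 1 overlapped the WT range. The difference was -0.48 (95% interval -1.27 to 0.31; limma adjusted p = 1), with -0.18, -0.89 and -0.38 in pairs 1, 2 and 3, and it was -0.36 by title. Without RAG-/- replicate 2 it was -0.19 by description and -0.04 by title. The second probe set gave -0.60 by description. With the values as deposited the 3 RAG-/- arrays lay below the 3 WT arrays.

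Cx3cl1 (chromosome 8, 94772180 to 94782427), known in brain as a neuronal ligand of microglial CX3CR1, was lowest in pair 3 at its brightest probe set. It read 9.78, 10.36 and 8.36 in RAG-/- and 9.99, 9.38 and 8.504 in WT. Pair means were 9.89, 9.87 and 8.43 in pairs 1, 2 and 3 (adjusted p = 0.0776 between pairs, limma moderated F-test), the smallest among the members. Neuron marker means were also lowest in pair 3, at 10.20 in RAG-/- and 10.87 in WT, and their part was not tested. The genotype difference was 0.21 by description and 0.35 by title, with intervals of -1.11 to 1.53 and -0.95 to 1.65, and single arrays turned it: without RAG-/- replicate 2 it was -0.22 and -0.04, without WT replicate 3 -0.19 and -0.01, and without RAG-/- replicate 3 0.78 and 0.96. The second probe set, also above background in every array, read 7.83, 8.0 and 7.43 in RAG-/- and 7.04, 7.56 and 7.54 in WT. Its lowest array was WT replicate 1, and it differed by 0.37 by description and -0.15 by title. The 2 dimmest Cx3cl1 probe sets were above background in no array.

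The cytokines above background throughout did not separate the genotypes. Il18, a cytokine stored as an inactive precursor, read 9.87, 9.77 and 10.03 in RAG-/- replicates 1, 2 and 3 and 10.38, 9.45 and 9.80 in WT replicates 1, 2 and 3. Its difference was 0.01 by description (95% interval -0.72 to 0.75) and 0.35 by title (-0.31 to 1.02), where all 3 pairs had the same sign. Il33, a nuclear alarmin released by damaged cells, read 9.34, 9.68 and 9.16 in RAG-/- and 9.41, 9.02 and 9.64 in WT, a range of 0.66 over the 6 arrays, against a median range of 0.995 over genes above background in every array. Its difference was 0.04 by description (-0.67 to 0.75) and 0.08 by title (-0.61 to 0.78).

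Ccl27a, Ccl4 and Cxcl1, all secreted chemokines, were above background in every array. Ccl27a, known from skin, read 9.26, 9.73 and 8.87 in RAG-/- and 9.69, 9.13 and 9.08 in WT, with a difference of -0.02 (95% interval -0.80 to 0.77). Near-identical copies of that gene lie in the mouse genome, so its signal may be shared. Ccl4, an inflammatory chemokine, read 7.21, 7.19 and 6.92 in RAG-/- and 7.41, 7.11 and 7.64 in WT, with a difference of -0.28 (-0.97 to 0.41). Cxcl1, which draws neutrophils through CXCR2, read 9.04, 8.35 and 9.05 in RAG-/- and 8.03, 8.83 and 9.23 in WT. Its difference was 0.12 by description and -0.56 by title (-1.35 to 0.23), where each pair was lower in the array titled RAG. A further Cxcl1 probe set pointed the other way by description, at -0.28, as did the dimmest, at -0.86, which was above background in 1 array. With the mean of its probe sets Cxcl1 differed by -0.34 by description.

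**Figure D3:**
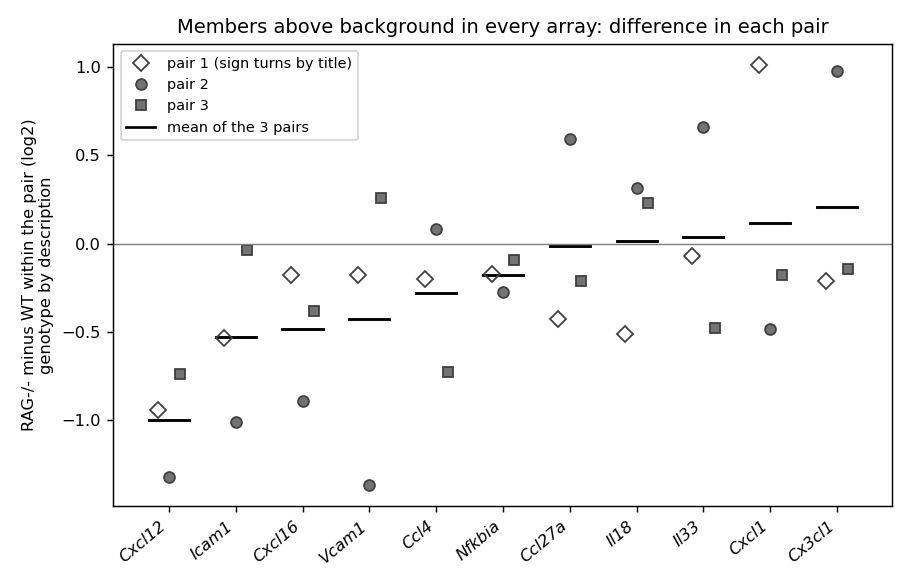
RAG-/- minus WT within each pair, in log2 units and by description, for the 11 members above background in every array; open diamonds are pair 1, whose sign turns by title, filled symbols pairs 2 and 3, and black bars the mean. Cxcl12 lies at -0.94, -1.32 and -0.74, all below 0, as do the 3 pairs of Icam1, Cxcl16 and Nfkbia, while the other 7 members have pairs on both sides of 0.

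In 4 of these 11 members, Cxcl12, Cxcl16, Icam1 and Nfkbia, all 3 pairs were lower in the RAG-/- array by description, against 11.3% of the 10923 genes above background in every array, and in 0 of 11 all 3 were higher (9.32%). By title 1 of 11 was lower in all pairs, Cxcl1 (16%), and 1 of 11 higher, Il18 (9.79%). Over all 35 members 8 were lower in all pairs by description (11.2% of all genes) and 2 higher (10.8%), and by title 3 were lower (14.5%) and 4 higher (10.9%). In 0 of the 11 did the groups separate without overlap, RAG-/- above WT (1.45% of genes by description and 1.98% by title) or below it (1.2% and 2.57%). The fibroblast, endothelial and neutrophil list means were also lower in the RAG-/- array of each pair by description. Oligodendrocyte markers, 4 of 5 above background in every array, were higher in RAG-/- in 5 of 5 by description (median 1.08) and 5 of 5 by title (median 1.31), with list means of 10.08, 11.55 and 11.40 in RAG-/- and 10.43, 10.18 and 9.63 in WT. The part of these cell types in the 4 members was not tested.

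WT replicate 1, the array of pair 1 that is titled RAG, had the highest value of Tnf and of 6 of the 9 inflammatory CC chemokines, namely Ccl2, Ccl3, Ccl5, Ccl7, Ccl12 and Ccl24. Ccl4 and Ccl8 were highest in WT replicate 3 and Ccl11 in RAG-/- replicate 2. WT replicate 1 was the highest of the 6 arrays in 16 of the 35 members (11.4% of all genes), and in 13 of the 24 members above background in some or every array (11.5% of such genes). RAG-/- replicates 1, 2 and 3 were highest in 3, 7 and 1 members (16.5%, 24.1% and 16.1% of all genes), and WT replicates 2 and 3 in 1 and 7 (13.1% and 18.9%). Ccl3, made by activated macrophages and neutrophils, read 4.68, 5.24 and 4.38 in RAG-/- replicates 1, 2 and 3 and 7.59, 4.26 and 4.45 in WT replicates 1, 2 and 3. WT replicate 1 alone was above background, with a deposited intensity of 183 where the other 5 lay between 3.14 and 25.5.

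Tnf, the cytokine that switches on endothelial adhesion molecules, read 5.17, 5.18 and 5.19 in RAG-/- and 6.78, 4.95 and 5.44 in WT. Ccl5, which draws T cells and monocytes, read 6.21, 4.58 and 5.0 in RAG-/- and 6.97, 4.84 and 5.90 in WT. In both genes only WT replicate 1 was above background, and with the 99th percentile as the level Tnf was above it in 0 of 6 arrays. The Ccl3 difference was -0.67 by description and 1.27 by title, and that of Tnf -0.54 and 0.54. Ccl5, whose next highest array was RAG-/- replicate 1, differed by -0.64 by description and -0.13 by title.

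The monocyte attractants of the chromosome 11 cluster, which act mainly on CCR2, had their highest values in the arrays of pair 1. Ccl2 read 7.09, 6.21 and 5.93 in RAG-/- replicates 1, 2 and 3 and 7.72, 6.0 and 5.13 in WT replicates 1, 2 and 3 (adjusted p = 0.0854 between pairs, limma moderated F-test). Ccl12 read 7.0, 4.77 and 5.48 in RAG-/- and 7.69, 4.46 and 6.10 in WT. Ccl7 read 6.23, 6.09 and 4.53 in RAG-/- and 6.96, 5.81 and 4.63 in WT. In each of the 3 the arrays of pair 1 were the highest, WT above RAG-/-, and the genotypes overlapped. Ccl2 and Ccl12 were above background in those arrays alone, and Ccl7 only in WT replicate 1.

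Both arrays of pair 1 were above the other 4 in 6 of 35 members (8.38% of all genes), namely Ccl2, Ccl5, Ccl7, Ccl12, Il1b and Il10. Both arrays of pair 2 were below the other 4 in 9 members (14.8%) and both of pair 3 in 7 (14.5%). The test between pairs called 0 of the 17 members that passed the filter (1.98% of genes), and 6 of 17 had an unadjusted p under 0.05 (28.8% of genes), close to the share of all genes. With 1 array left out the calls changed in some fits, both among members and over all probe sets. Such a fit leaves 1 array in a pair, so its calls are not read as a result about the members.

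Macrophage markers, 8 of 10 above background in every array, had list means of 9.53, 7.91 and 8.24 in RAG-/- replicates 1, 2 and 3 and 9.73, 7.76 and 8.6 in WT replicates 1, 2 and 3, highest in pair 1. Neutrophil markers, 4 of 8 above background in every array, had list means of 8.68, 6.36 and 8.66 in RAG-/- and 10.32, 6.92 and 9.01 in WT, highest in WT replicate 1 and lowest in pair 2. None of the 10 macrophage or 8 neutrophil markers was below background in all arrays. Their part in the chemokine values was not tested.

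**Figure D4:**
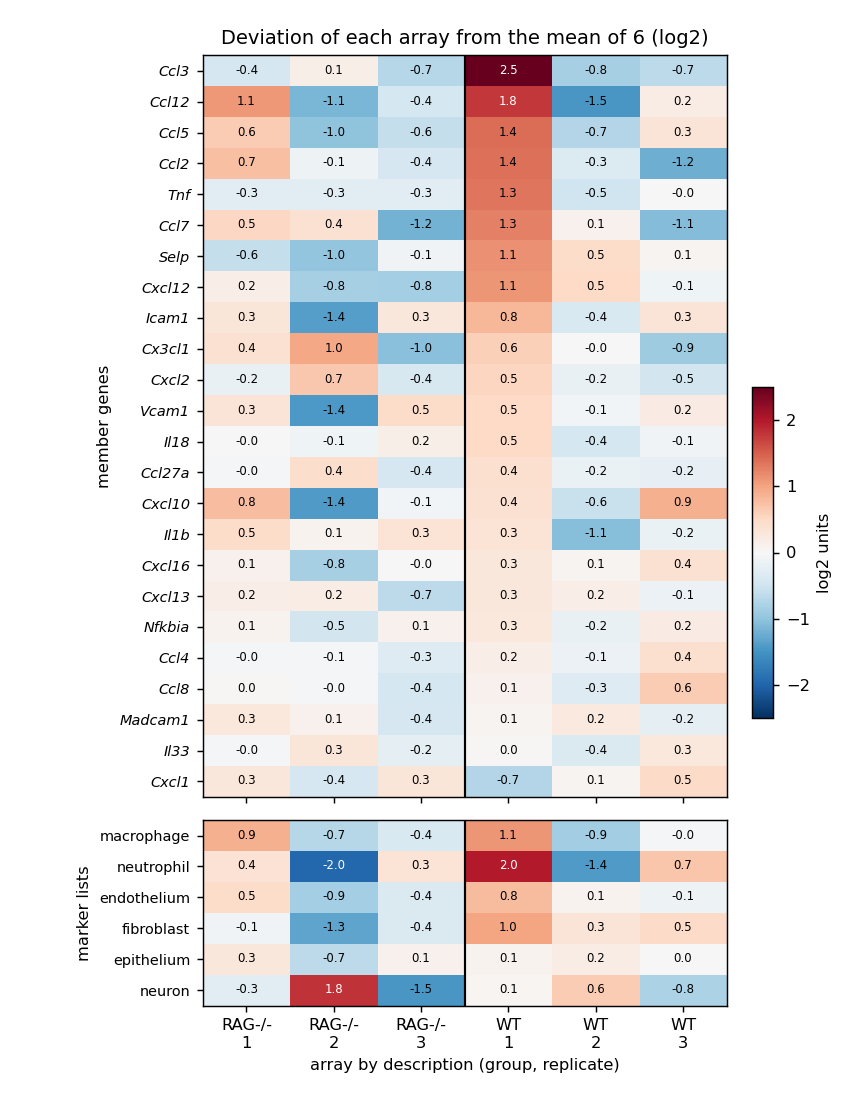
Deviation of each array from the mean of the 6 arrays, in log2 units, for the 24 members above background in some or every array (above) and for 6 marker lists (below); columns are RAG-/- replicates 1 to 3, left of the line, and WT replicates 1 to 3 by description. The WT replicate 1 column is the highest of the 6 in 13 members, and the RAG-/- replicate 2 column is lowest for Icam1, Vcam1 and Nfkbia.

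Il1b, Ccl8, Madcam1, Cxcl10 and Cxcl13 were above background in 3 to 5 arrays. Il1b, a cytokine of activated myeloid cells, read 7.21, 6.84 and 7.10 in RAG-/- replicates 1, 2 and 3 and 7.10, 5.69 and 6.59 in WT replicates 1, 2 and 3. It was above background in the 3 RAG-/- arrays and in 2 WT arrays, and higher in the RAG-/- array of each pair by 0.11, 1.15 and 0.51. Its difference was 0.59 by description (95% interval -0.36 to 1.54) and 0.52 by title (-0.46 to 1.49), with an adjusted p of 1 by description (limma), and without WT replicate 2 it was 0.21 by description and 0.11 by title.

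Cxcl10, an interferon-induced ligand of CXCR3, read 6.94, 4.77 and 6.11 in RAG-/- and 6.56, 5.61 and 7.06 in WT, lowest in pair 2. Its difference was -0.47 by description (95% interval -1.88 to 0.94) and -0.73 by title (-2.07 to 0.61), where all 3 pairs had the same sign, and 0.12 by description without RAG-/- replicate 2. Ccl8 lay between 6.30 and 7.37, Madcam1, the mucosal addressin, between 6.14 and 6.82, and Cxcl2 between 5.23 and 6.36. Cxcl13, a B cell attractant, lay between 5.84 and 6.78 at its brightest probe set, with differences of -0.20 by description and -0.12 by title, while its other probe set differed by 0.24 and 1.22.

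The genotypes did not overlap by description in 2 members, the selectins Sele and Selp, and both were at or near background. That is 5.71% of the 35 members, against 4.58% of all genes. Sele, induced on inflamed endothelium, read 5.73, 5.56 and 6.08 in RAG-/- replicates 1, 2 and 3 and 4.78, 4.37 and 4.41 in WT replicates 1, 2 and 3. The RAG-/- arrays were the higher ones (2.65% of genes were so placed), but no array of either genotype was above background, so no fold is given. Selp, stored in platelets and endothelial cells, read 5.17, 4.79 and 5.69 in RAG-/- and 6.91, 6.22 and 5.84 in WT, the RAG-/- arrays being lower (1.93% of genes). Only WT replicate 1 was above background, and the other 2 Selp probe sets did not separate the groups and differed by 0.65 and -0.04. Neither gene passed the filter on dim probe sets. By exact permutation of 3 against 3 arrays the two-sided p was 0.1 for each, the smallest possible.

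By title the groups did not overlap in 1 member (2.86%, against 5.93% of all genes), and 0 were lower in the arrays titled RAG (3.17%). The 1 was Ccl24, an attractant of eosinophils. It read 6.05, 5.19 and 5.24 in the arrays titled RAG, which are WT replicate 1 and RAG-/- replicates 2 and 3, and 4.69, 4.73 and 4.98 in the others, all under background (2.76% of genes were higher in all arrays titled RAG). The remaining members under background in every array lay between 4.09 and 6.197, the ends being Il10 in RAG-/- replicate 2 and Cxcl9 in WT replicate 3.

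The receptors for these signals and the pathway that drives them were read from 5 lists, of which 0 genes passed the threshold between genotypes by description and 0 by title. Of 20 chemokine receptors measured, 4 were above background in every array, namely Ackr1, Ackr3, Cx3cr1 and Cxcr3, and the median difference was -0.30 by description and 0.10 by title. Ackr1, the decoy receptor of venules and red cells, was the 1 receptor of chemokines called between pairs (limma moderated F-test, adjusted p = 0.0349). It read 8.95, 10.33 and 7.15 in RAG-/- replicates 1, 2 and 3 and 9.29, 10.25 and 7.86 in WT replicates 1, 2 and 3, highest in pair 2 and lowest in pair 3. This call and those of Il1r1, Itgb2 and Ppbp below were lost with genotype as a term, which left 0 of the 545 calls between pairs over all probe sets, and without RAG-/- replicate 1 or 3 or WT replicate 1 or 3, each of which also left 0. Ackr1, Il1r1, Itgb2 and Ppbp were each the 1 call of their list, among 11, 11, 8 and 9 genes that passed the filter. Of all genes that passed it, 1.98% were called. Cxcr4, the receptor of Cxcl12, was above background in no array. Ackr3, its scavenging receptor, was above it in every array, between 9.10 and 10.67 in RAG-/- and between 9.99 and 11.06 in WT.

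Of 15 cytokine receptors, 9 were above background in every array and the median differences were -0.26 by description and -0.15 by title. Il1r1, the signalling receptor of interleukin-1, was called between pairs (adjusted p = 0.0389, lost with a genotype term) and was lowest in pair 2, at 6.93 in RAG-/- and 6.80 in WT, with 8.52 to 9.02 in the other RAG-/- and 8.53 to 8.61 in the other WT arrays. Il10rb and Il6st, shared chains of several cytokine receptors, had the smallest unadjusted p by description in this list, with differences of -0.79 and -0.55 (limma adjusted p = 1 for both). Il6st read 9.96, 9.97 and 9.97 in RAG-/- and 10.58, 10.66 and 10.34 in WT. By description the groups did not overlap, RAG-/- being lower, as in 1.93% of all genes, and by title they overlapped.

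Leukocyte adhesion receptors, 6 of 12 above background in every array, had medians of -0.04 by description and -0.01 by title. Itgb2, the beta chain of LFA-1, was called between pairs (adjusted p = 0.0371, lost with a genotype term), at 8.24, 6.11 and 7.08 in RAG-/- and 8.61, 5.88 and 7.20 in WT, highest in pair 1 and lowest in pair 2. NF-kB pathway genes, 8 of 12 above background in every array, had 9 lower by description (median -0.12) and 11 lower by title (median -0.15). Of all genes 50.2% and 52.7% were lower. In this list 0 were called between pairs. Among 16 other chemokines the platelet chemokine Ppbp was called between pairs (adjusted p = 0.0233, lost with a genotype term), at 8.299, 4.42 and 8.47 in RAG-/- and 8.26, 4.24 and 8.04 in WT, under background in pair 2. Pf4, also of platelets, read 9.83, 7.95 and 9.65 in RAG-/- and 10.52, 8.54 and 9.97 in WT, lowest in pair 2 as well (adjusted p = 0.0544 between pairs).

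The further genes of these lists with the smallest unadjusted p had no adjusted p under 0.05 in any of the 3 tests. Among chemokine receptors Ccr9 differed by -0.88 by description and 0.75 by title, Ccr10 by 0.55 and 0.92, Ackr2 by -0.46 and -0.72 and Ackr4 by 0.41 and 0.53, and none of these 4 was above background in every array. Among cytokine receptors Il18rap differed by 0.46 by description and 0.75 by title, Tnfrsf1a by -0.19 and -0.26 and Il13ra1 by -0.66 and -0.48. Among adhesion receptors Itgb7 differed by 0.66 by description and -0.07 by title, Cd44 by -0.48 and 0.01, F11r by -0.34 and -0.62 and Icam2 by -0.25 and -0.28.

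Of the NF-kB pathway Myd88, the adaptor of Toll-like and interleukin-1 receptors, read 9.18, 8.27 and 8.61 in RAG-/- replicates 1, 2 and 3 and 8.97, 9.0 and 9.49 in WT replicates 1, 2 and 3. The genotypes overlapped, and the difference was -0.46 by description and -0.61 by title. Nfkb2 differed by -0.37 by description and -0.14 by title, Traf6 by 0.14 and 0.41, Relb by 0.02 and -0.02 and Nfkbie by -0.38 and -0.20. Among other chemokines Ccl6 differed by -0.55 by description and -0.52 by title and Ccl28, a mucosal chemokine, by 0.36 and 0.39.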

How the data were processed

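Each of 6 choroid plexus preparations was measured on 1 single-colour oligonucleotide array. The deposited values are linear intensities per probe set (software and normalization: not given in the sources used here). The values show that arrays had been scaled to 1 mean of 500.003 after setting aside the lowest and highest 2% of probe sets. The background correction behind them could not be varied. Of 45101 probe sets, 64 controls were left out. Symbols came from the platform annotation, updated by gene number through the GRCm38.p6 gene table (34741 of 34945 single-symbol probe sets matched).

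Intensities were taken as log2(intensity + 16), quantile normalized and, for the tests, filtered to the 27022 probe sets above the lowest 40% of mean value. limma 3.58.1 in R 4.3.3 (lmFit, eBayes with trend, two-sided, Benjamini-Hochberg, threshold 0.05) compared RAG-/- with WT by description and by title, and tested the pair codes with a moderated F-test. A gene's brightest probe set stood for it. The fits were tested on simulated data with independent noise. The planted shifts exceeded any genotype difference of a member here, so the power for smaller differences was not measured. The pair codes were taken to pair the samples because, after subtraction of group means, partners correlated at 0.29, 0.39 and 0.58. The members and lists were chosen with earlier results of these data known. Values by array are given for members above background in every array, the 5 with the smallest p in each test and those whose groups did not overlap; of the other lists, genes past the threshold and the 2 with the smallest p in each test are named. Ccl3, Ccl5, Ccl7, Ccl12, Tnf, Ackr3 and Cxcr4 were added after their values were seen. Arrays limit the precision by their number, 3 per group.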

Additional observations from a re-analysis of the deposited data

How the results depend on the processing

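Alternatives were the values as deposited, a common median, pseudocounts of 1 and 64, no filter on dim probe sets, the mean of a gene's probe sets, array weights, the pair as a block and each array left out in turn. The count of members past the threshold between genotypes was 0 by description and by title in each of them, also with the replicate block, which changed no call of a member; over all probe sets the 0 calls became 4 by description without RAG-/- replicate 2, and by title 1 with the block and 2 with array weights. The 11 members above background in every array became 12 with the 90th percentile, 9 with the 99th, 12 with the 40th percentile of all probe sets, 9 with the mean of probe sets, and between 11 and 12 with an array left out. The 2 members whose groups did not overlap by description became 1 by title and 3 with the values as deposited. Of the 18193 genes, 834, 1079 and 817 did not overlap in these settings. With an array left out the members ranged from 2 to 9, with 4 without RAG-/- replicate 1, 4 without WT replicate 1 and 9 without WT replicate 2. A group of fewer arrays overlaps less often by construction, in all genes, so these larger counts are not read as a result about the members. The count with no filter was not run, since overlap uses none. Members called between pairs were 0 in all settings but the left-out arrays, where they ranged from 0 to 5 (1 without RAG-/- replicate 2 and 5 without WT replicate 2), and the calls over all probe sets, 545, were 919 as deposited, 1024 with a common median, 79 with no filter, 86 with the mean of probe sets and 0 with a genotype term, and ranged from 0 to 7304 with an array left out (1753 without RAG-/- replicate 2, 7304 without WT replicate 2 and 0 without any other). Of 34 differences of named members, by description or title, 14 kept their sign under all 14 alternatives. Among these, dropping the filter and adding the block cannot change a difference, nor can the mean of probe sets where a gene has only 1. Of 476 values 6 moved by more than 1 SD within groups, all of Sele, Selp or Ccl24. All did so with another pseudocount except Selp, which was -0.17 with the mean of its probe sets. That count does not measure stability. Leaving out 1 of 3 arrays cannot shift a difference by 1 SD, and dropping the filter or adding the block leaves it unchanged. For dim probe sets the unknown background correction limits any ratio.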
